A study of Mus musculus with 2 samples.

Results

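The 8 keratins of the interfollicular epidermis, Krt5, Krt14, Krt1, Krt10, Krt2, Krt77, Krt80 and Krt78, were followed through single cells of mouse dorsal skin. They were taken by symbol from the 32285 genes of the deposited matrices, and all 8 were found. They stand among 53 keratin genes in those matrices. The study profiled skin of P3 mice in 2 libraries. The control library came from mice of wild-type genotype treated with Dox (doxycycline). The induced library came from mice labelled as miR-200b induced, also treated with Dox, so both groups carried the drug. Epidermal and dermal suspensions, each released by enzymes, were pooled at 30 parts epidermis to 70 parts dermis before loading. How the microRNA was induced, the promoter that drove it and the number of mice per library are not given in the sources used here. The mature microRNA was not analysed here. Gm13648, an annotated transcript that spans the miR-200b sequence on the same strand (chr4:156052715-156059802, GRCm38), stood at 2.20 CPM in control and 528 CPM in induced epithelial cells, where CPM is UMIs (unique molecular identifiers, each standing for 1 captured RNA molecule) per 1000000 UMIs of all genes. Its induced level was 708 CPM in basal, 427 CPM in spinous and 78.0 CPM in granular cells.

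Keratins are the intermediate filament proteins of epithelia, and each filament is built from heterodimers of 1 acidic type I and 1 basic to neutral type II chain. Basal keratinocytes, which hold the dividing cells of the epidermis, make Krt5 (type II) and Krt14 (type I). Cells that leave the basal layer switch to Krt1 (type II) and Krt10 (type I), and this switch is the classical mark of suprabasal commitment. Krt2, Krt77, Krt78 and Krt80 are type II chains of differentiating or adult surface epithelium, and their partners are less settled. The miR-200 family is known chiefly for holding cells in an epithelial state by repressing the Zeb factors.

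By their labels the libraries differ in a short RNA, miR-200b. Its 3p form is shown here with its seed, bases 2 to 8, in capitals. It was taken from RefSeq (GRCm38.p6), where it lies at chr4:156055685-156055706 on the minus strand.
miR-200b-3p: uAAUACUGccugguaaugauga
The same seed is carried by 3 mature mouse microRNAs in that table, miR-200b-3p, miR-200c-3p and miR-429-3p. The DNA letters that pair with the seed, CAGTATT, were sought in the annotated 3′ UTRs of the 8 keratins (GENCODE vM21). Krt80 was the 1 member with a match, in all 3 of its annotated 3′ UTRs. The match is shown with its neighbouring bases because it is the only one in the group; capitals mark the paired letters.
Krt80, chr15:101349398-101349404, minus strand: agacacctgaCAGTATTgggggacgaa
Of 21153 genes with an annotated 3′ UTR, 15% held the same letters. The longest annotated 3′ UTR of Krt80 has 2648 bases, against 150 to 1125 bases for the longest of each other member. A match describes the letters and is not a shown target.

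The members sit in both keratin clusters of the genome (GRCm38, GENCODE vM21), and all 8 are on the minus strand. Krt10 (chr11:99385254-99389364, at most 8 annotated exons) and Krt14 (chr11:100203162-100207548, 8 exons) lie in the type I cluster, 822 kb from end to end, with 18 coding keratin genes in that span. The type II members span 607 kb of chromosome 15 with 24 coding keratin genes. They are Krt80 (chr15:101347444-101370162), Krt5 (chr15:101707070-101712898), Krt2 (chr15:101810689-101818169), Krt1 (chr15:101845426-101850794), Krt77 (chr15:101858731-101869705) and Krt78 (chr15:101946001-101954287), each with at most 9 exons. Krt1 lies directly between Krt2 and Krt77, so 3 members with very different levels are coding neighbours.

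RefSeq start sites (GRCm38.p6) were available for 6 of the 8 members, all but Krt1 and Krt80. The 250 bases before the start are printed for the first basal keratin and for the suprabasal keratins whose levels are described most below. Capitals mark the run TATATA, with the A letters that follow it in Krt10 and the TA in Krt77, or the run GATAAAAG. Both runs were chosen after the sequences had been read.
Krt5, chr15:101712906-101713155, minus strand: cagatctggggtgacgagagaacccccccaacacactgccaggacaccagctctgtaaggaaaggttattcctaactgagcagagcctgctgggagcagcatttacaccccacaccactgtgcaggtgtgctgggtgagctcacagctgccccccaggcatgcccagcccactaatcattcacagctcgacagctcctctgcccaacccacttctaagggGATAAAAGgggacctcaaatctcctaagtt
Krt10, chr11:99389365-99389614, minus strand: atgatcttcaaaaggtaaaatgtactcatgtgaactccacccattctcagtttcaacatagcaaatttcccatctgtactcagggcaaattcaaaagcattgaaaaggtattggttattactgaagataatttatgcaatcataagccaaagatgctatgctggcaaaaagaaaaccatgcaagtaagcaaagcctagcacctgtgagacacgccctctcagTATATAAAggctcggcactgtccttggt
Krt77, chr15:101869706-101869955, minus strand: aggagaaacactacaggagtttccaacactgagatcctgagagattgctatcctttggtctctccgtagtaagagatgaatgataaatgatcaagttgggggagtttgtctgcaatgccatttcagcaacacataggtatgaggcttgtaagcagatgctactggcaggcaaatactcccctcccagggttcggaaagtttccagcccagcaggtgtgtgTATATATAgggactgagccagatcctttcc
Krt78, chr15:101954288-101954537, minus strand: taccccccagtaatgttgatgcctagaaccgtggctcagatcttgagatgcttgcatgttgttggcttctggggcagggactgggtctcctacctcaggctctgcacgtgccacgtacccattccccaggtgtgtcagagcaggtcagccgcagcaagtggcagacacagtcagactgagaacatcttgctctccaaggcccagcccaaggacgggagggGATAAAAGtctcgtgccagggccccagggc
The run began 30 bases before the start in Krt5 and Krt78 and, as TATATA, 30 bases before it in Krt77 and 28 in Krt10. Krt5, highest in basal cells, and Krt78, highest in granular cells, shared GATAAAAG, which 0.779% of 32851 promoters held on either strand. No other of the 37 keratin promoters held it. TATATA was present in 3 of 6 members (Krt10, Krt2 and Krt77) and in 5.25% of all and 24.3% of keratin promoters. TATAAA, which overlaps it in Krt10, was present in 1 of 6 members, 12.4% of all and 45.9% of keratin promoters. The AP-1 letters TGANTCA (6.75% of all promoters), the AP-2 letters GCCNNNGGC (13.7%) and the grainyhead letters AACNGGTT (1.79%) were in none of these 6 windows, searched on both strands. The CACCC box letters CCACCC were in Krt10 and Krt14, in 28.1% of all promoters and in 35.1% of keratin promoters. The RefSeq window of Krt14 lies inside the GENCODE gene, so it is counted but not printed.

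There were 9072 barcodes with 100409201 UMIs in the control library and 9114 with 119705137 UMIs in the induced one. After the filters 4816 control and 4890 induced cells were kept, of which 3973 and 4105 were epithelial, with median depths of 16092 and 21127 UMIs. The libraries shared 74 barcodes in all and 7 among kept cells. Cells were grouped without any keratin gene, in each library apart, and clusters were named from marker lists without members. Markers at 20 CPM or more numbered 13 of 13 for the basal class in both libraries, 11 of 12 for the spinous class in both, and 13 (control) and 11 (induced) of 14 for the granular class. The classes held 532 control and 1422 induced basal cells, 84 and 423 spinous cells, and 69 and 48 granular cells. Each group is 1 library, so no test between them was possible, and every interval given is a 95% interval of counting error only. UMIs are counted at the 3′ end of each molecule, so CPM can be compared between genes without a length correction.

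Basal cells carried the Krt5 and Krt14 pair at the highest levels of any class. Krt5 stood at 13412 CPM in control and 7235 CPM in induced basal cells. Krt14 stood at 24417 and 15680 CPM. Both were lower in the induced library, by log2 ratios of -0.89 (-0.90 to -0.88) for Krt5 and -0.64 (-0.65 to -0.63) for Krt14, where the median of 6013 genes was 0.01. Neither reached 2-fold, and 0 of the 4 members with 20 CPM or more in either library were past that fold in basal cells, in either direction. Over all genes there, 3.66% were at least 2-fold higher and 4.89% at least 2-fold lower.

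The clusters of the class showed the same order. The 3 control basal clusters had Krt5 between 13084 and 14021 CPM, and the 7 induced ones between 4080 and 7959 CPM, so the ranges did not overlap. The class is not made of like clusters, however: the control clusters CE12 and CE21, led by Ccl27a and Fst, and CE5, led by Plet1 and Fst, were nearest the basal class but left unnamed, and held Krt5 at 6688, 8083 and 3215 CPM, while the induced IE1, led by Ccl27a, and IE11, led by Mt1 and Fst, were named basal. With those 3 control clusters counted the ranges overlap. Krt5 was past 2-fold in 3 of 10 alternatives, at -1.10 with doublets kept and at -1.12 and -1.13 when both libraries were clustered together without and with centring. The 12 dissociation-stress genes, early-response genes set off when skin is taken apart, summed to 12277 CPM in control and 6977 CPM in induced basal cells, and their part in the difference was not tested. Cells with 2 or more G2/M UMIs per 10000, a mark of division, had nearly the same Krt5 as the rest in control basal cells, 13347 against 13449 CPM. In induced basal cells the values were 6707 against 7439 CPM. Krt80 differed more with division, at 33.0 against 9.88 CPM in control and 17.96 against 8.88 CPM in induced basal cells.

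Krt14 exceeded Krt5 in each of the 6 epithelial classes plotted, by amounts that differed between classes. The ratio of Krt14 to Krt5 UMIs was 1.82 (control) and 2.17 (induced) in basal cells, 7.38 and 4.10 in spinous cells, and 8.60 and 2.19 in granular cells. The control granular value rests on 579 Krt5 UMIs, many of them from 1 of 69 cells, which held Krt5 at 2625 CPM and Krt14 at 9586 CPM. The other 68 cells held Krt5 at 56.1 CPM and Krt14 at 857 CPM, so that without this cell Krt5 in granular cells would be more than 2-fold higher in the induced library (196 CPM). In the outer root sheath, the follicle's outer layer, the ratio was 1.203 and 1.26. The ratio was thus higher in spinous than in basal cells of both libraries, and higher in granular than in basal cells of the control library, while the induced granular and basal ratios were nearly equal. The induced over control log2 ratio of Krt14 per Krt5 in spinous cells, -0.85, turned to 0.60 at the coarser clustering resolution. Control sebaceous cells, the lipid-making cells of the gland, had Krt14 at 6843 CPM beside Krt5 at 271 CPM, a ratio of 25.3. The 69 induced cells named sebaceous gave 1.39, with Krt5 at 3540 CPM. That induced cluster, IE22 (I for induced, E for epithelial), was named on 3 markers, Scd1, Mgst1 and Plin2, and held the lipid enzyme Scd1 at 601 CPM against 7040 CPM in the control class. Across clusters Krt14 per Krt5 ran from 0.678 to 13.3 in the control library and from 0.337 to 7.19 in the induced one, over the 27 clusters of each with 1000 or more Krt5 UMIs.

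Krt1 and Krt10 were high in suprabasal cells of both libraries. Krt1 reached 33782 CPM in control and 22434 CPM in induced spinous cells, and 28449 and 17902 CPM in granular cells. Krt10 reached 32841 and 24878 CPM in spinous cells, and 33824 and 27893 CPM in granular cells. Within a class both were lower in the induced library and under 2-fold, with log2 ratios in spinous and granular cells of -0.59 and -0.67 for Krt1 and -0.40 and -0.28 for Krt10. This direction turned with the grouping. With doublets kept the spinous ratios were 0.32 for Krt1 and 0.38 for Krt10, and at the coarser resolution they were 0.06 and 0.35. The granular ratios were 0.34 and 0.47 at that resolution and 0.22 and 0.38 when both libraries were clustered together. Over all epithelial cells Krt1 was 3793 CPM in control and 5152 CPM in induced cells, and Krt10 4003 and 5917 CPM. The induced library had more cells named spinous, so a change in level and a change in cell number cannot be told apart in that total.

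Basal levels of Krt1 and Krt10 lay at or under those of cells that should lack them. Basal cells held Krt1 at 137 and 96.5 CPM and Krt10 at 125 and 127 CPM, while fibroblasts, dermal cells without a keratin network, held Krt1 at 135 and 219 CPM and Krt10 at 195 and 301 CPM. The share of cells with Krt10, after each cell was thinned to 2000 UMIs, was 23.4% (19.9 to 27.2) in control and 23.3% (21.1 to 25.6) in induced basal cells. It was 33.3% and 44.6% in fibroblasts, whose median depths were 9486 and 6189 UMIs against 19020 and 23711 UMIs in basal cells. Thinning left out 2 control and 11 induced basal cells and 5 and 35 fibroblasts. Without thinning the basal shares were 86.8% and 88.6%, and those of fibroblasts 81.9% and 80.7%. The basal shares were read as background.

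**Figure D1:**
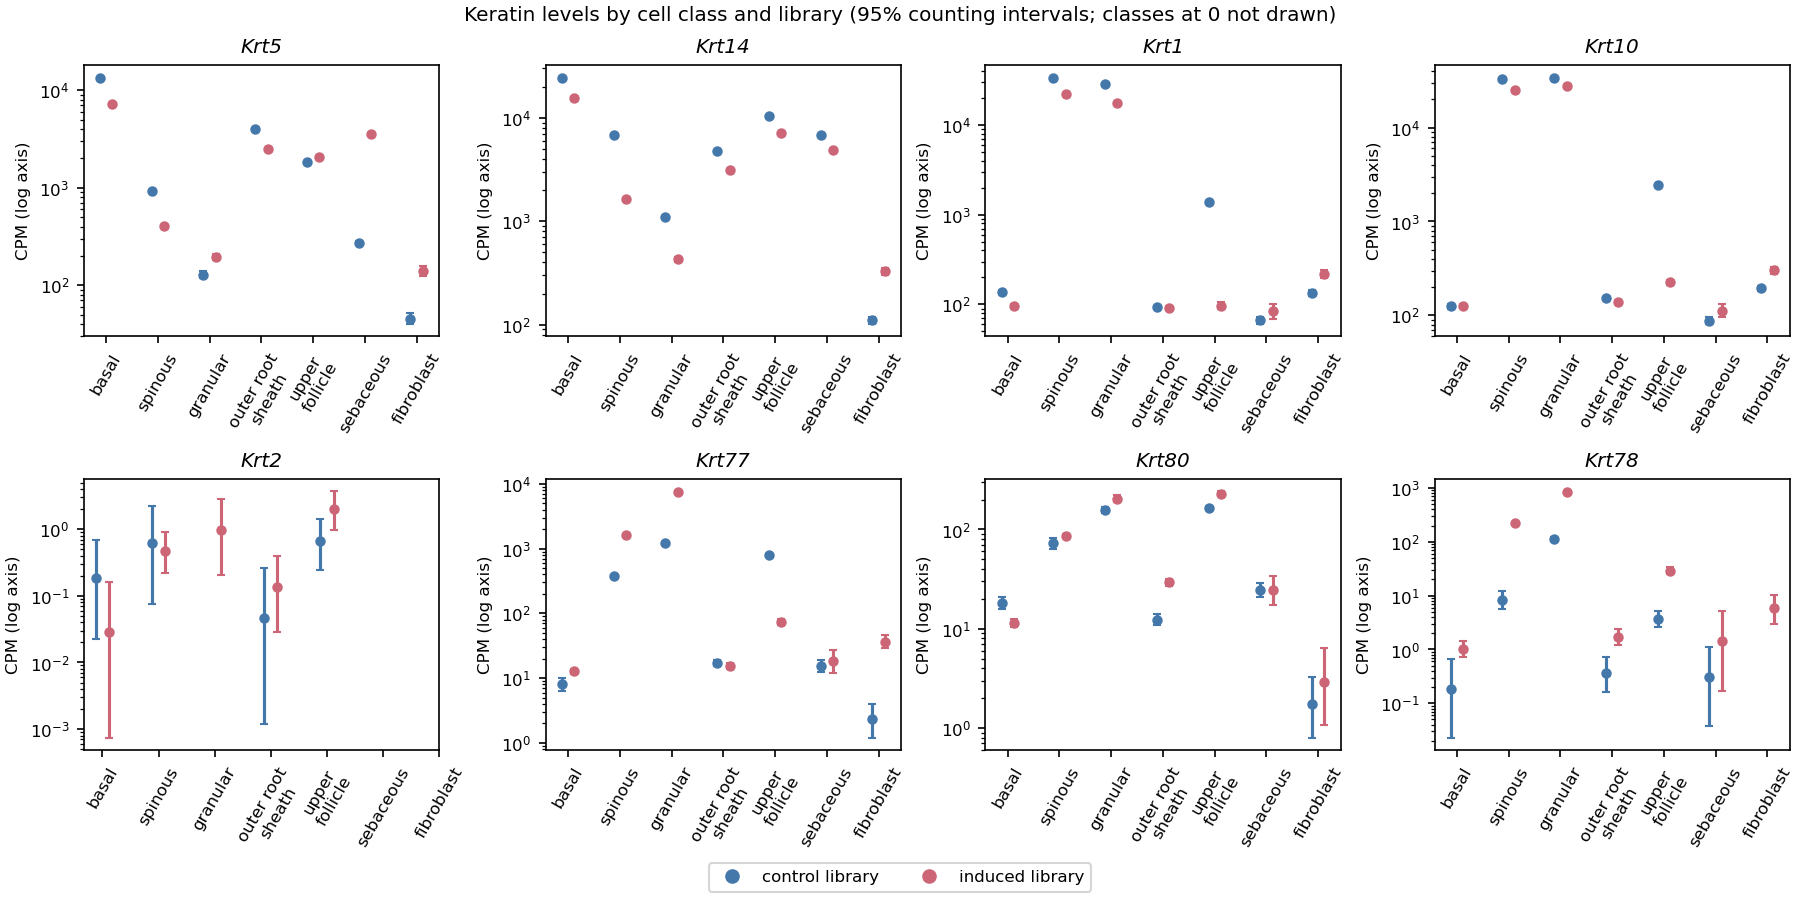
Level of each keratin in CPM (log axis) in 6 epithelial classes and in fibroblasts, with control and induced libraries as points and 95% counting intervals as bars. Krt5 and Krt14 peak in basal cells and Krt1 and Krt10 in spinous and granular cells, while Krt77 and Krt78 stand higher in the induced spinous and granular cells. Krt2 stays under 3 CPM in every class.

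Both pairs were high together in several clusters, and 3 that were left unnamed are described here. Others include the shallow unnamed clusters CE32 (19 cells) and IE4 (207 cells), with Krt1 at 2224 and 3088 CPM and Krt10 at 2850 and 4193 CPM. CE7 had 8 spinous markers but leading genes of another class, and IE3 and IE28 had fewer than 3 markers of any class. They were singled out after their values were seen. In the control library cluster CE7 (C for control) had 174 cells, led by Cstdc5, Stfa3 and Ly6d. It held Krt5 at 11969, Krt14 at 29794, Krt1 at 9610 and Krt10 at 5492 CPM. In the induced library cluster IE3 had 232 cells, led by Clca3a2 and Krt16. It held Krt5 at 8130, Krt14 at 17235, Krt1 at 2229 and Krt10 at 1581 CPM. The highest Krt14 of any control cluster was that of CE7, above the 26654 CPM of the next, a basal cluster, while in the induced library 2 basal clusters stood above IE3, the higher at 18553 CPM. After thinning, 74.1% (67.0 to 80.5) of CE7 cells and 54.4% (47.7 to 61.0) of IE3 cells held Krt14 and Krt10 together, against 7.62% and 18.8% of control and induced fibroblasts and 23.4% and 23.3% of basal cells, where Krt10 was read as background. The same share was 70.2% (59.3 to 79.7) in control and 45.3% (40.4 to 50.1) in induced spinous cells.

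In CE7, IE3 and IE28 Krt1 stood above Krt10. Krt10 per Krt1 was 0.572 in CE7, 0.709 in IE3 and 0.681 in the 35-cell induced cluster IE28. It was 0.972 and 1.11 in control and induced spinous cells, and 1.19 and 1.56 in granular cells. From CE7, IE3 and IE28, picked after their values were seen, to spinous to granular cells the ratio rose in both libraries. Some other clusters with both pairs stood above the spinous cells of their library. Among them were CE11 of the upper follicle, at 1.72, and the shallow CE32 and IE4, at 1.28 and 1.36. Induced cluster IE27, 48 cells led by Krt79, Sostdc1 and Ccl27a, also departed from that order. It held Krt10 at 1745 CPM with Krt1 at 166 CPM, a ratio of 10.5, where Krt1 was lower than in fibroblasts of the same library. Over clusters, Krt1 and Krt10 levels had Pearson r of 0.978 (33 control clusters) and 0.974 (28 induced clusters), with Spearman rho of 0.607 and 0.904, as a description, since clusters of a library share its free RNA.

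**Figure D2:**
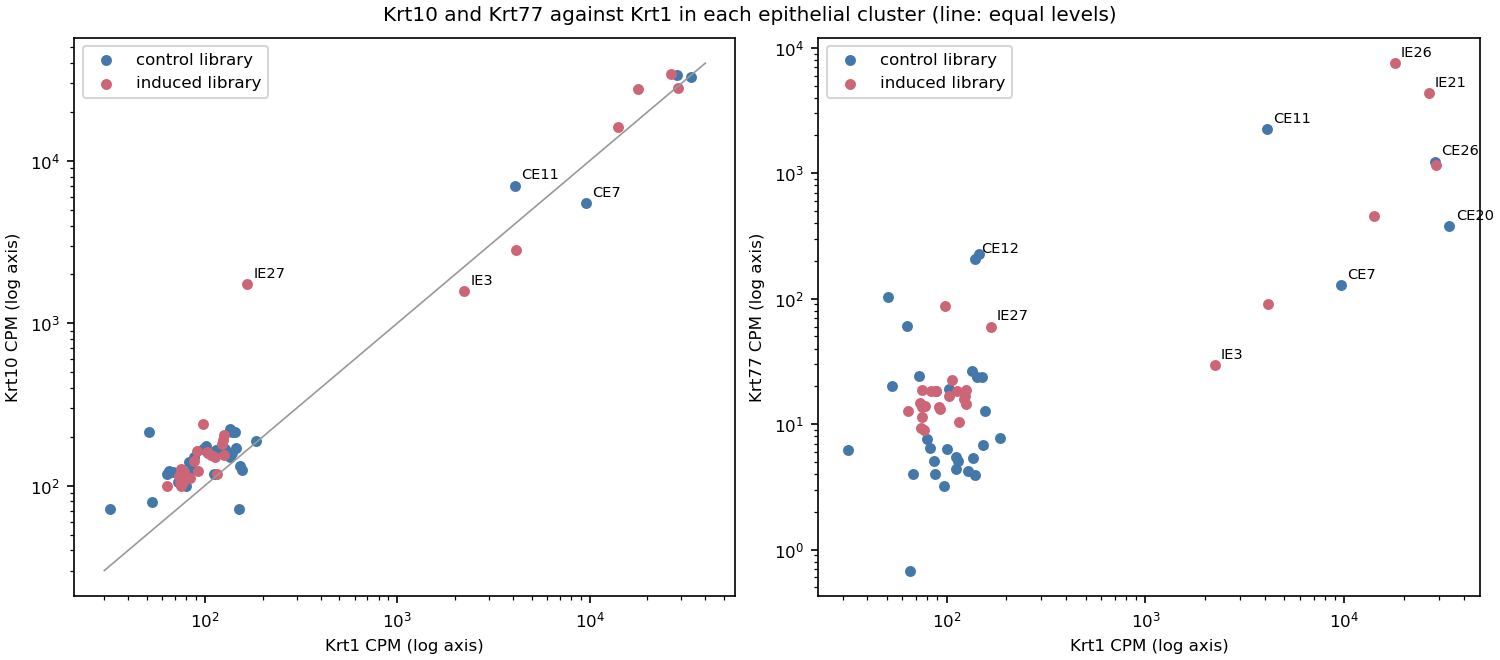
Krt10 (left) and Krt77 (right) against Krt1, in CPM on log axes, each point 1 epithelial cluster of the control or induced library with a median of 3000 UMIs or more. CE7 and IE3 lie under the line of equal levels and IE27 far above it. At right CE12 and the unlabelled point beside it, CE21, hold more Krt77 (208 and 226 CPM) than the other clusters with Krt1 between 100 and 200 CPM, and the induced clusters IE21 and IE26 lie highest.

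The balance of the pairs in single cells lay mostly at either end. The set used was epithelial cells outside named follicle, sebaceous and hair shaft clusters and outside shallow clusters, those of low median depth. In it 1904 control and 2361 induced cells had 20 or more UMIs of Krt5, Krt14, Krt1 and Krt10 together. Krt1 and Krt10 made up under 10% of these in 83.0% (81.2 to 84.6) of control and 74.1% (72.3 to 75.9) of induced cells. They made up 90% or more in 5.99% (4.96 to 7.15) and 16.7% (15.2 to 18.3). The makeup of the set differed between the libraries. Named basal, spinous and granular cells were 532, 84 and 69 of its 1965 control cells. They were 1422, 423 and 48 of its 2401 induced cells. The rest were in unnamed clusters, in control among them CE8, nearest hair matrix, and CE10, nearest hair shaft. The part of unnamed clusters in these shares was not tested. Shares from 10% to under 50% were found in 7.77% of control and 5.51% of induced cells, and shares from 50% to under 90% in 3.26% and 3.68%. Few cells of this set thus held the pairs in similar amounts in either library. Over all epithelial cells, shallow clusters included, the 50% to under 90% range held 2.20% of control and 5.26% of induced cells. Those induced cells had a median depth of 1158 UMIs. Within spinous cells a share of 90% or more was found in 65.5% (54.3 to 75.5) of control and 79.8% (75.7 to 83.5) of induced cells. Among the cells of this set at 90% or more, whatever their class, Krt77 was 982 CPM in control and 2759 CPM in induced cells, and Krt78 was 83.5 and 348 CPM.

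**Figure D3:**
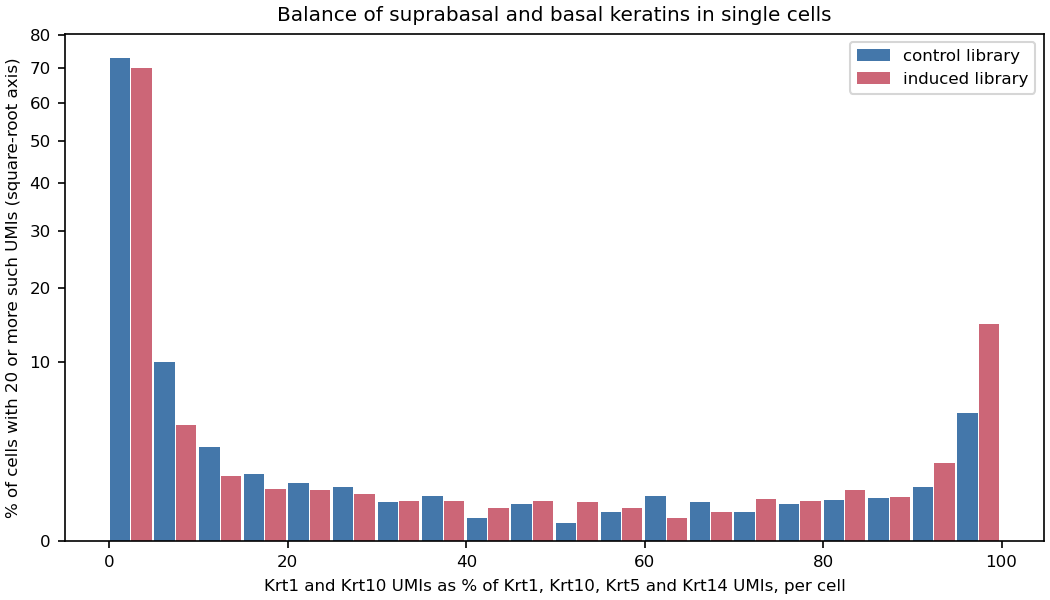
Share of cells (vertical, square-root axis) by the percent of Krt1 and Krt10 among the UMIs of Krt1, Krt10, Krt5 and Krt14, in steps of 5 percent, for 1904 control and 2361 induced cells. Most cells lie at either end, and the last bars are taller in the induced library. The parts of named epidermal and unnamed clusters in these cells differ between the libraries.

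Krt77 and Krt78 were higher in the induced library in differentiated cells. Krt77, the type II neighbour of Krt1, stood at 376 CPM in control and 1608 CPM in induced spinous cells, and at 1237 and 7547 CPM in granular cells. Krt78 stood at 8.39 and 219 CPM in spinous cells, and at 111 and 831 CPM in granular cells. In spinous and granular cells the log2 ratios were 2.09 (2.01 to 2.18) and 2.61 (2.57 to 2.65) for Krt77 and 4.71 (4.16 to 5.31) and 2.90 (2.76 to 3.04) for Krt78. The control spinous value of Krt78 rests on 27 UMIs. Krt77 and Krt78 were the 2 of 7 measured members at least 2-fold higher in both classes, where 9.63% of 5273 spinous and 8.76% of 4991 granular genes were. Krt5 and Krt14 were the 2 of 7 at least 2-fold lower in spinous cells (log2 ratios -1.19 and -2.03), where 9.43% of genes were. Krt14 was the 1 of 7 at least 2-fold lower in granular cells (-1.37), where 20.2% were. Without the control cell named above it was 857 against 427 CPM, and its ratio was 2.61 when the libraries were clustered together and centred. The median gene stood at -0.13 in spinous and -0.28 in granular cells. The 14 late differentiation genes, all but Calm4 of which also served as markers for these classes, differed in them too. Their sum was 20861 CPM in control and 35247 CPM in induced spinous cells, with 9 of 13 measured at least 2-fold higher and 1 lower. In granular cells the sum was 61509 and 104170 CPM, with 5 of 14 higher and 3 lower. Whether the induced classes hold cells further along differentiation, and the part of this in the keratin ratios, was not tested.

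The makeup of the spinous class differed between libraries, and the values moved with it. The control class is cluster CE20, and the induced class is IE15, IE5 (led by Krt79) and IE21 (led by Sprr1b). Krt77 was 453 CPM in IE5, 1154 CPM in IE15 and 4357 CPM in IE21, and Krt78 was 63.3, 185 and 545 CPM, so each was above CE20 for both genes. Without IE21 the spinous log2 ratio of Krt77 was 1.08 and that of Krt78 was 3.87, and Krt5 at -0.87 was no longer past 2-fold. Without IE5 the ratio was 2.65 for Krt77, and -2.76 and -3.03 for Krt5 and Krt14. Krt77 was past 2-fold in 10 of 11 spinous alternatives, the exception being 0.35 with doublets kept, which changed the clusters. In the granular class Krt77 was past 2-fold in 9 of 9 alternatives, from 1.75 to 2.67, and Krt78 in 8 of 9, from 0.98 to 3.39.

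**Figure D4:**
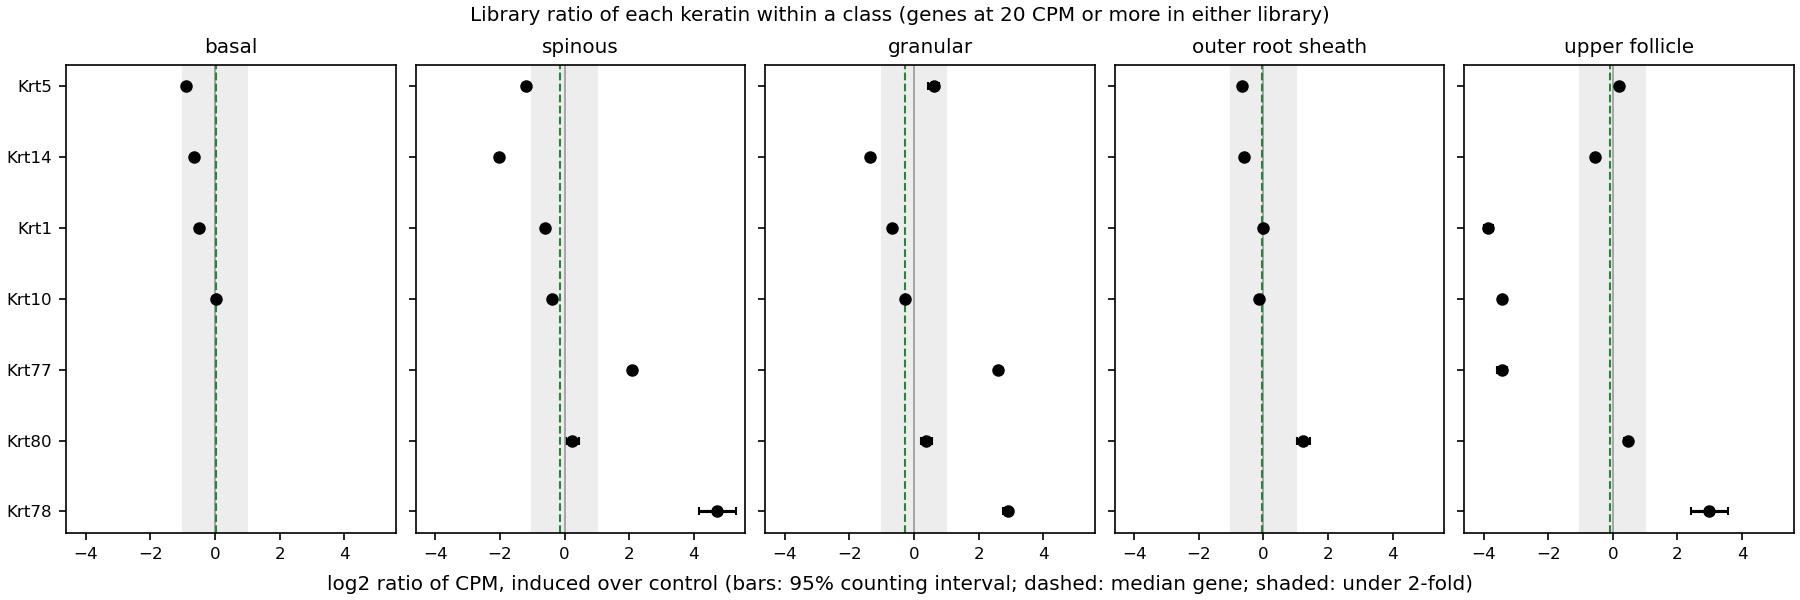
log2 ratio of CPM, induced over control, for members with 20 CPM or more in either library, in 5 classes, with 95% counting intervals. The dashed line is the median gene and the shaded band is under 2-fold. Krt77 lies right of the band in spinous and granular cells and left of it in the upper follicle.

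Krt77 was also high outside the interfollicular classes of the control library. Cluster CE11, 141 upper follicle cells led by Krt79, Defb6 and Cst6, held the highest Krt77 of any control cluster, 2250 CPM, with Krt1 at 4087, Krt10 at 7036 and Krt80 at 207 CPM. After thinning, 80.6% (73.0 to 86.8) of its cells had Krt77. Control clusters CE12 and CE21, both led by Ccl27a and Fst, had Krt77 at 208 and 226 CPM while Krt1 was 139 and 145 CPM, about the level in fibroblasts (135 CPM). The induced clusters with Ccl27a among their leading 2 genes, IE1 and IE13, had Krt77 at 14.0 and 16.6 CPM, under the 36.6 CPM of induced fibroblasts. Thinned shares of cells with Krt77 were 25.2% in CE12 and 27.2% (17.9 to 38.2) in CE21, and 3.67% (1.84 to 6.47) in IE1 and 4.93% in IE13. Induced cluster IE27, with Ccl27a after Krt79 and Sostdc1 among its leading genes, had 59.8 CPM, above those fibroblasts.

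The upper follicle class as a whole had 795 CPM of Krt77 in control and 73.6 CPM in induced cells. Krt1 there was 1398 and 97.1 CPM, and Krt10 2459 and 226 CPM. Krt78 went the other way, at 3.73 and 29.3 CPM. Different clusters hold that class, CE11, CE13 and CE18 in control and IE12, led by Cst6, Sprr1a and Krt25, and IE23 in the induced library, so cluster makeup and level cannot be told apart there.

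Krt77 was also higher in induced fibroblasts, cells that should lack it. Whether it came from free RNA or from mixed barcodes was not tested. Fibroblasts held 12 UMIs (2.31 CPM) in control and 75 UMIs (36.6 CPM) in induced cells. Basal cells held 8.07 and 12.8 CPM, and thinned shares of 1.13% (0.417 to 2.45) and 2.69% (1.91 to 3.68), against 0.952% and 8.70% in fibroblasts. Induced basal Krt77 was therefore read as background. In granular cells the thinned shares were 60.6% and 95.7%, far above both.

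Krt77 gave a larger part of the members' type II RNA in granular and spinous cells of the induced library. Type II keratins outside the members are left out of this share. In granular cells it made up 4.11% of the members' type II UMIs in control and 28.3% in induced cells. In spinous cells it made up 1.07% and 6.50%. The order was opposite in the upper follicle, at 18.9% and 2.92%. Type I members (Krt14 and Krt10) per type II member came to 1.13 and 1.07 in spinous cells, and 1.16 (1.15 to 1.17) and 1.06 (1.05 to 1.07) in granular cells. With Krt77 left out, the granular ratios were 1.21 and 1.48. In basal cells the ratio was 1.81 in control and 2.15 in induced cells. With all 27 type I and 26 type II keratin genes counted, it was 1.17 and 1.29 in granular cells and 2.47 and 2.42 in basal cells, so the direction of the difference in both classes depended on which keratins were counted. In spinous cells the ratios without Krt77, 1.14 and 1.15, had intervals that overlapped. The 8 members took 3.81% and 2.32% of all UMIs in basal cells, 7.48% and 5.13% in spinous cells, and 6.50% and 5.50% in granular cells.

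Krt80, a type II chain of several differentiating epithelia, was low beside the main pairs. It stood at 18.3 and 11.4 CPM in control and induced basal cells, 72.7 and 85.3 CPM in spinous cells, and 156 and 204 CPM in granular cells. Its highest clusters were named upper follicle, CE11 (207 CPM) and CE18 (204 CPM) in control and IE12 (256 CPM) in the induced library. IE12 also had inner root sheath genes, Krt25, Krt71 and Tchh, among its leading 10, and that class was its nearest. In the outer root sheath it was 12.4 CPM in control and 29.2 CPM in induced cells, a log2 ratio of 1.24 (1.03 to 1.45) where the median gene was -0.04. In basal cells the ratio was -0.68 (-0.93 to -0.43), opposite in sign, with both levels under 20 CPM. In fibroblasts it was 1.74 and 2.93 CPM. Over all epithelial cells, whose classes differ in size between the libraries, it stood at 48.2 and 49.7 CPM.

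Krt2, a late type II keratin known from the upper epidermis of ear, sole and tail, was close to absent. Only 20 UMIs were counted in all control and 27 in all induced epithelial cells, 0.258 (0.157 to 0.398) and 0.275 (0.181 to 0.400) CPM. Granular cells had 0 UMIs in control, which allows up to 0.665 CPM at 3 counts, and 3 UMIs in induced cells. Its highest cluster was IE12 at 2.47 CPM. Fibroblasts had 0 UMIs in both libraries.

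The keratins were also ordered without class names. The set, chosen after the clusters were seen, was epithelial cells outside named follicle, sebaceous, hair shaft and shallow clusters. These cells were ranked by the share of late differentiation UMIs among late plus basal adhesion UMIs, using 14 and 10 genes and no keratin. They were divided into 8 bins over both libraries. In bin 6 Krt1 was 517 CPM in control and 209 CPM in induced cells, after 129 and 91.1 CPM in bin 5. Krt10 in bin 6 was 190 and 238 CPM, after 122 and 132 CPM. Of these bin 6 values only control Krt1 was above the fibroblasts of its library (135 and 219 CPM of Krt1, 195 and 301 CPM of Krt10). In bin 7 Krt1 was 15673 and 5962 CPM and Krt10 12513 and 5018 CPM, while Krt5 was still 7562 and 5358 CPM. In bin 8 Krt5 was 210 and 232 CPM. In both libraries, then, Krt1 and Krt10 were high in a bin that still held Krt5.

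The basal pair did not keep 1 direction along the axis. In bin 1 Krt5 was 3880 and 5703 CPM and Krt14 5840 and 12209 CPM, higher in the induced library by log2 ratios of 0.56 and 1.06. In bin 4 Krt5 was 9922 and 7047 CPM and Krt14 17872 and 15047 CPM, lower in the induced library, and from bin 3 to bin 7 both ratios were below 0. The ranked set also held unnamed control clusters nearest follicle classes, such as CE8 (hair matrix, Krt5 at 1435 CPM) and CE10 (hair shaft, 2566 CPM). The part of such clusters in these ratios was not tested.

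Krt14 peaked in bin 7 of the control library (20914 CPM) and in bin 6 of the induced one (16733 CPM), and was 2432 and 1032 CPM in bin 8. Krt78 appeared last, at 4.13 and 17.5 CPM in bin 7 and 81.2 and 336 CPM in bin 8. The Krt77 ratio changed sign along the axis. It was lower in the induced library in each of bins 1 to 7, with an interval that includes 0 in bin 1 (-0.93 to 0.21), and higher in bin 8. In bin 6 it was 66.3 against 20.3 CPM, in bin 7 188 against 121 CPM, and in bin 8 989 against 2699 CPM, control first. The induced values of bins 1 to 6, 10.7 to 20.3 CPM, were under the 36.6 CPM of induced fibroblasts. The set ranked on the axis includes the control clusters CE12 and CE21, and the part of these clusters in the lower bins was not tested. The log2 ratio was -0.64 (-0.76 to -0.52) in bin 7 and 1.45 (1.41 to 1.49) in bin 8. Krt80 was lower in the induced library in all 8 bins, at 133 and 105 CPM in bin 8, again with an interval that includes 0 in bin 1. Bin 8 held 119 control and 418 induced cells, with median depths of 43395 and 45766 UMIs.

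**Figure D5:**
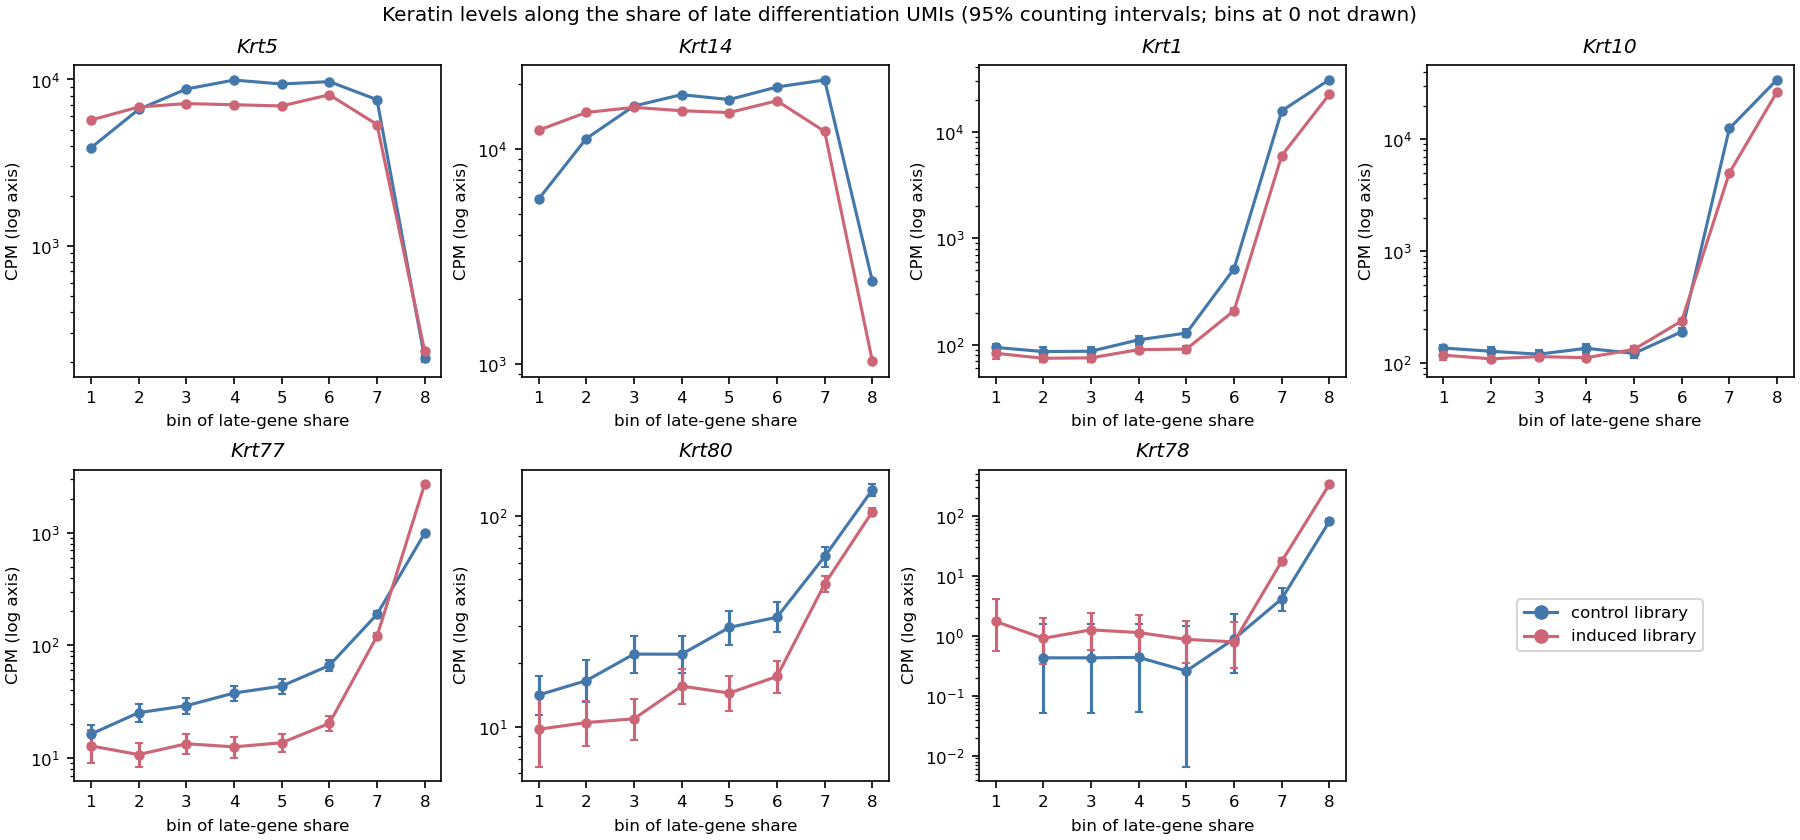
Level in CPM (log axis) of 7 keratins in 8 bins of near-equal cell number over both libraries, from the lowest to the highest share of late differentiation UMIs, with 95% counting intervals as bars. Krt5 and Krt14 drop in bin 8, Krt1 and Krt10 are highest in bins 7 and 8, and Krt77 is lower in the induced library up to bin 7 and higher in bin 8.

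Genes with patterns most like each member were named over 33 control and 28 induced epithelial clusters, by the lower of both Pearson r of log2(CPM + 10) among 5233 genes. These are descriptions of clusters that share a library. Nearest Krt5 were Tspo (0.919 control, 0.926 induced), Itgb4, an integrin of hemidesmosomes, and Pdlim1. Nearest Krt14 were Limd1 (0.718, 0.858), Pdcd6 and Anxa2. Krt1 and Krt10 shared Ptgs1, a prostaglandin synthase, at 0.964 and 0.986 with Krt1 and 0.944 and 0.967 with Krt10. Both shared Fam57a, while Npl came with Krt1 and Oas1f with Krt10. Nearest Krt77 were Calm4 (0.857, 0.893), Tmprss4 and Casp14, the caspase of cornification. Nearest Krt78 were Cnfn (0.957, 0.980), a cornified envelope protein, Flg and 2310046K23Rik. Nearest Krt80 were Klk5 (0.870, 0.788), Atp6v1c2 and Klk7, and Klk5 and Klk7 are proteases of the cornified layer. For Krt2 the rule gave Defb1, Sh3kbp1 and Dnajb1, the best at 0.559 and 0.503, which is not read further at its count. With 50 CPM added instead, 3 of 3 genes were named again for Krt14, Krt10 and Krt80, 2 of 3 for Krt1, Krt2 and Krt78, and 1 of 3 for Krt5 and Krt77.

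Other genes of the pathway were read as fixed lists. The stress keratins Krt6a, Krt6b, Krt16 and Krt17, known from activated epidermis, summed to 1048 CPM in control and 9806 CPM in induced spinous cells, with 4 of 4 at least 2-fold higher, where 9.63% of all genes were. In granular cells they summed to 5444 and 13576 CPM, with 3 of 4 past 2-fold, where 8.76% of all genes were. Among 12 filament partners, spinous cells had 11 measured, of which 4 were at least 2-fold higher (Flg, Hrnr, Ppl and Eppk1) and 1 lower (Tchh), where 9.63% and 9.43% of all genes were. Flg, the filament-bundling filaggrin, was 4.97 and 332 CPM there, and Hrnr 0.933 and 68.2 CPM. Dsp, the desmosomal anchor of keratin filaments, was 1021 and 1759 CPM, under 2-fold. In granular cells 3 partners were higher and 3 lower of 11, among them Hrnr at 576 and 2105 CPM and Flg2 at 414 and 170 CPM. Over all granular genes 8.76% were higher and 20.2% lower, so the share of partners lower was near that of all genes. The median partner had a log2 ratio of 0.50 in spinous and 0.10 in granular cells. Flg, Flg2 and Hrnr also served as granular markers and Dst as a basal one, so their ratios are not independent of the naming.

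Among 15 regulators, spinous cells had 14 measured, with 2 at least 2-fold higher, Cebpb (388 and 843 CPM) and Grhl3 (27.4 and 73.6 CPM), and 0 lower, where 9.63% and 9.43% of all genes were. In granular cells 2 of 15 were higher, Grhl3 and Prdm1, and 5 lower, Trp63, Tfap2a, Tfap2c, Notch1 and Hes1, where 8.76% and 20.2% of all genes were. Klf4, a barrier factor, was the highest of the list in granular cells, at 1100 and 1497 CPM. Grhl3 also served as a spinous marker and Trp63 as a basal one, so their ratios are not independent of the naming. In basal cells 1 of 11 was higher, Ovol1, a factor of basal exit, at 15.6 and 36.2 CPM, where 3.66% of all genes were. Over all epithelial cells 2 of 7 measured members were at least 2-fold higher, Krt77 (205 and 561 CPM) and Krt78 (7.61 and 70.8 CPM), and 0 of 7 lower, where 3.71% and 6.58% of 6366 genes were. The classes differ in size between the libraries, so level and cell number cannot be told apart in these totals.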

How the data were processed

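Single-cell RNA of 2 libraries (10x Genomics 3′ v3.1) was counted against mm10, per the submitters' processing notes, and the file headers name Cell Ranger 6.0.0. The deposited matrices hold raw UMI counts per gene and barcode, and the authors applied no normalization to them. Barcodes with at least 1000 UMIs, at least 500 genes and under 15% mitochondrial UMIs were kept (5178 and 5258). Scrublet, as built into scanpy 1.11.5, marked only 7 and 6 cells at its automatic threshold, so the 7% with the highest scores were removed in each library. Cells were clustered per library (Leiden, resolution 2.0 for epithelial cells) without keratin, cell-cycle, mitochondrial, ribosomal, histone, haemoglobin and sex-linked genes. Exact neighbours were used, since the default search did not repeat between runs. A cluster was named when 3 or more listed markers were detected in 25% of its cells and 1.5-fold above other cells. It stayed unnamed where its 10 leading genes held more markers of a different class. UMIs were summed per class and library and given as CPM over all genes, with exact Poisson intervals. Ratios have conditional binomial intervals and shares of cells Clopper-Pearson intervals. A gene was called at 2-fold or more among genes with 20 CPM or more in either library. The ratio call was tested on simulated data. Axis cells needed 10 or more UMIs of its genes and were all epithelial cells outside named follicle, sebaceous and hair shaft clusters and shallow clusters, where epidermal cells alone had been planned. For each member the 3 most alike genes were named by correlation, and genes of the lists when highest or past 2-fold. The members and lists were chosen with earlier results of these data known. Naming thresholds, doublet handling, the axis set, the 20 and 10 UMI minimums, the type I to type II balance, clusters singled out and the runs TATATA and GATAAAAG were chosen after seeing the data. Alternatives covered doublets, cell filter, clustering, scaling, cell weights, minimum level, thinning and the added CPM. 4 further alternatives, which leave out clusters or use another clustering seed, were chosen after seeing the data.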

Additional observations from a re-analysis of the deposited data

Results flagged for a closer look

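Krt77 went opposite ways in different classes: its log2 ratio, induced over control, was 2.61 in granular cells and -3.43 in the upper follicle. The upper follicle clusters of the libraries differ in their leading genes, and whether the ratios of these classes differ was not tested.

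Krt5 also went opposite ways, with a log2 ratio of 3.71 in sebaceous cells and -1.19 in spinous cells. The sebaceous classes held 217 control and 69 induced cells, with Scd1 at 7040 and 601 CPM. Basal adhesion genes summed to 153 and 1507 CPM in them, and G2/M genes to 54.9 and 786 CPM. The classes thus hold unlike cells, and this contrast was not tested either.

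Barcodes that failed the cell filter, 3894 control and 3856 induced, also carried Krt77 and Krt78. Krt77 was 503 CPM in the induced ones against 191 CPM in the control ones, and Krt78 was 64.5 against 16.2 CPM.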

How the results depend on the processing

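No paired analysis was possible because each group has 1 library. Counts of members past 2-fold moved by more than 1.5 times in 10 cases. In basal cells 2 members were lower, against 0, with doublets kept, and 1 with both libraries clustered together, library-centred or not. In spinous cells 1 was higher, against 2, with doublets kept, and 1 was lower, against 2, with libraries clustered together or without the induced cluster led by Sprr1b. In granular cells 0 were lower, against 1, with libraries clustered together, library-centred or not, and 2 at resolution 1.0. Over all epithelial cells 1 was higher, against 2, at a minimum of 100 CPM. Besides these 10, 3 granular members were higher, against 2, in the library-centred setting and with each cell weighted equally. The cause was not tested, except that the minimum of 100 CPM tests fewer genes and the one without a cluster has fewer cells.

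The granular log2 ratio of Krt14 turned to 2.61 with libraries clustered together and centred, and Krt77 per Krt1 in basal cells to -0.36 at resolution 1.0. Krt78 was past 2-fold and higher in 11 of 11 spinous alternatives, and Krt14 past 2-fold and lower in 11 of 11 spinous and 7 of 9 granular ones. Krt1 and Krt10 kept their sign in 9 of 11 spinous and 6 of 9 granular alternatives each. With another clustering seed the spinous ratios were 2.69 for Krt77, -3.20 for Krt5 and -3.21 for Krt14. Krt2 had at most 10 UMIs in any single named class of either library, and Krt78 had 2 control UMIs in basal and in sebaceous cells, too few to compare the libraries.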
